A study of Mus musculus with 6 samples.

Results

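The keratin (Krt) and small proline-rich (Sprr) genes were followed in whole mouse kidneys at postnatal day 13. Members were chosen by symbol, as every gene named Krt or Sprr with a number, which gave 68 genes (52 Krt and 16 Sprr) of the 24422 in the count tables. Fold changes were reported for the members selected on their reads, 60 or more summed over the 6 libraries, which left 20 genes (16 Krt and 4 Sprr). Of the other members, 31 had between 1 and 59 reads and 17 had none. The gene just outside the threshold was Krt79 with 48 reads, and the gene just inside it was Krt25 with 70 reads. The threshold used the sum over both groups, and 5 of the 20 genes (Krt83, Krt25, Krt17, Sprr2f and Sprr2g) had under 60 reads in the 3 Control libraries together. Those 5 passed only with the reads of the knockout libraries, so counts over the 20 genes are given as a description.

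The series held poly-A RNA from 3 Control kidneys and 3 kidneys in which TfR1 (Tfrc, the transferrin receptor) was targeted in the nephron lineage, and asked what changes when these cells cannot take up transferrin. All mice were C57BL/6 on a chow with 220 ppm iron, the Controls were labelled wild type and the knockouts Tfr1f/f;SixCre. Six2Cre acts in the progenitors of the nephron, so the collecting duct, the stroma and the urothelium of a knockout kidney keep the floxed exons 3 and 4, and the study's text describes tubular cells that escaped the deletion. The labels give 6 separate samples and the study's supplement gives 3 mice for each model, so p-values measure the spread between these kidneys.

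Keratins are the intermediate filament proteins of epithelia. A type I and a type II keratin pair to form the filament, and each kind of epithelium carries its own pairs. Simple epithelia such as kidney tubules and ducts use Krt8 and Krt7 (type II) with Krt18, Krt19 and Krt20 (type I), the basal layer of stratified epithelia uses Krt5 with Krt14 or Krt15, and hair follicles carry a large set of their own. The Sprr proteins are small precursors of the cornified envelope, the cross-linked shell under the membrane of squamous cells, and both families are known to be induced in epithelia under stress.

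Total gene counts ran from 16591156 to 22898008 per library. Tfrc itself did not separate the groups, with 5229 ± 1434 normalized counts in Control and 5640 ± 1482 in knockout kidneys (SD, n = 3 each), values that overlapped (log2 fold change 0.11, DESeq2 adjusted p 0.853), so the targeted gene does not check the group labels here. Normalized counts are the deposited raw counts divided by a size factor for each library. Markers of the adrenal cortex (7 genes) summed to 26720 normalized counts in Control replicate 1 and 3459 in knockout replicate 3, against 154 to 374 in the other 4 libraries, and knockout replicate 3 also held reads of hair follicle genes, described with the hair keratins. Without both of these libraries 8 members were called in place of 11, namely Krt15, Krt18, Krt19, Krt20, Krt23, Krt83, Sprr2f and Sprr2g. In a whole organ, a change in the number of cells of a type and a change in the RNA of each cell cannot be told apart.

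The members' summed reads were a larger part of the library in knockout kidneys. They made up 0.0616%, 0.0692% and 0.0755% of all reads in Control replicates 1 to 3 and 0.166%, 0.106% and 0.114% in knockout replicates 1 to 3, with no overlap. Krt8, Krt7, Krt18 and Krt19 held 81.9% of the 114764 reads. With calls made at an adjusted p under 0.05 together with 2-fold or more, 11 of the 20 reported genes rose in the DESeq2 test, where 4.41% of the 16509 genes tested were called higher. These were Sprr2f, Sprr2g, Krt15, Krt18, Krt19, Krt20, Krt23, Krt83, Krt25, Krt4 and Krt80. In edgeR's quasi-likelihood test, 7 of the 19 reported genes that entered it rose, beside 2.48% of all genes tested. The 4 calls that DESeq2 made alone were Krt18, Krt4, Krt80 and Krt25.

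No reported member passed both thresholds in the lower direction in DESeq2, edgeR or limma-voom, where DESeq2 called 4.46% and edgeR 2.31% of all genes lower. At an unadjusted p under 0.05, 1 member was lower in DESeq2 and 1 in edgeR, Krt10 in both. With no fold threshold, Krt8 joined the 11 genes, giving 12 of 20 against 7.74% of all genes. Normalized counts of the groups did not overlap for 13 members, 12 with the knockout libraries above and 1 with them below, and 16.9% of all genes tested lay in each of these classes (knockout above 16.9%, knockout below 16.9%). The median log2 fold change over the 20 genes was 1.18, against 0.0071 over all genes tested. Of the 7 members under 60 reads that received an adjusted p in DESeq2, 0 were called.

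**Figure D1:**
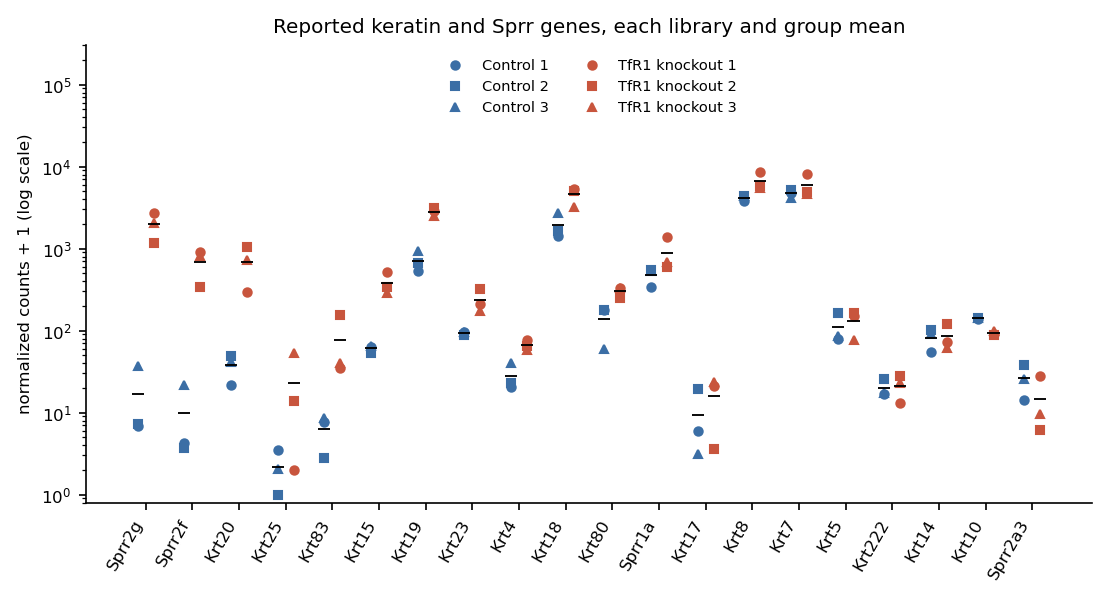
Normalized counts plus 1 (log axis) of the 20 reported genes in each library, ordered by log2 fold change, with blue marks for Control, red marks for TfR1 knockout and black bars for group means. The knockout marks of Sprr2g, Sprr2f, Krt20, Krt83, Krt15 and Krt19 sit above every Control mark, while those of Krt7, Krt5 and Krt14 are mixed with them.

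The type II keratin Krt8 had the most reads of the members, 32517 over the 6 libraries against 32306 for Krt7. Its gene lies on chromosome 15 (101827142 to 101834773 in mm9, the build of all gene positions given here). In Control kidneys Krt7 had the higher mean before any correction for gene length, 4713 normalized counts against 4178 for Krt8. Krt8 had 3796, 4367 and 4372 normalized counts in Control replicates 1 to 3 and 8696, 5732 and 5507 in knockout replicates 1 to 3. All 3 knockout libraries lay above all 3 Control libraries, and knockout replicate 1 stood well above the others. The log2 fold change was 0.67 (SE 0.23, DESeq2 adjusted p 0.0298), which passed the p threshold and not the 2-fold threshold, and edgeR's adjusted p was 0.109. Leaving out 1 library at a time moved it between 0.43 and 0.79, and it passed the adjusted p in 3 of the 6 fits.

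Krt7, the other type II keratin of ducts and urothelium, lies close to the other end of the same gene cluster (101241474 to 101260744). Its normalized counts were 4814, 5185 and 4141 in Control libraries and 8105, 4965 and 4621 in knockout libraries. Knockout replicate 1 was again the highest, and the other 2 knockout libraries lay within the Control range. The log2 fold change of 0.32 (SE 0.26, DESeq2 adjusted p 0.446) did not pass, and without knockout replicate 1 it was 0.02.

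Krt18, the usual type I partner of Krt8 and its neighbour on chromosome 15 (101858647 to 101862457), rose from 1945 ± 706 to 4575 ± 1178 normalized counts. The Control libraries had 1433, 1652 and 2750.2 and the knockout libraries 5396, 5105 and 3226. Control replicate 3 was the highest Control and knockout replicate 3 the lowest knockout library, and a gap remained between them. The log2 fold change was 1.23 (SE 0.32, DESeq2 adjusted p 0.0017), and it was called in all 6 fits that left out a library (1.05 to 1.57). In edgeR it missed the threshold (adjusted p 0.0567).

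Krt19, a type I keratin of ducts that lacks most of the tail domain found in other keratins, lies in the type I cluster on chromosome 11 (100002124 to 100009979). It had 534, 664 and 933 normalized counts in Control libraries and 2872, 3108 and 2481 in knockout libraries. The highest Control library was far below the lowest knockout library, and the knockout libraries were close to each other. Krt19 rose with a log2 fold change of 1.99 (SE 0.25, DESeq2 adjusted p 2.55e-13, edgeR adjusted p 0.0050), a 3.97-fold difference.

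Krt20, the type I keratin of urothelial umbrella cells and gut epithelium, rose most of the simple-epithelium keratins. Its gene (chromosome 11, 99289717 to 99299464) had 20.6, 48.2 and 40.9 normalized counts in Control libraries and 294, 1052 and 717 in knockout libraries. Here knockout replicate 1 was the lowest of the knockout libraries, whereas it was the highest for Krt8, Krt7 and Krt18. The log2 fold change was 4.24 (SE 0.49, DESeq2 adjusted p 9.11e-16, edgeR adjusted p 0.0084) and ranged from 3.80 to 4.60 when a library was left out.

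Because each filament takes a type I and a type II chain, the counts of a pair were also set against each other within a library, where the size factor cancels. These 5 ratios were chosen after the data had been seen. Krt18 had 0.377, 0.378 and 0.629 reads for each read of Krt8 in Control libraries and 0.620, 0.891 and 0.586 in knockout libraries. Control replicate 3 overlapped the knockout values, and the exact two-sided permutation test over libraries gave p = 0.3 (0.3 adjusted over the 5 ratios). Krt19 had 0.111, 0.128 and 0.225 reads for each read of Krt7 in Control libraries and 0.354, 0.626 and 0.537 in knockout libraries. These did not overlap (exact permutation p = 0.1, adjusted 0.125, where 0.1 is the smallest p that 3 against 3 allows). Krt20 had between 0.0054 and 0.0110 reads for each read of Krt8 in Control libraries and 0.0338, 0.183 and 0.130 in knockout libraries, again without overlap (exact permutation p = 0.1, adjusted 0.125). Krt18, Krt19 and Krt20 rose by the thresholds used while Krt8 and Krt7 did not reach 2-fold. With 0.1 as its smallest p, the permutation test could not have put any of these ratios under 0.05. It therefore decides nothing for any pair, and the ratios are given as a description.

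**Figure D2:**
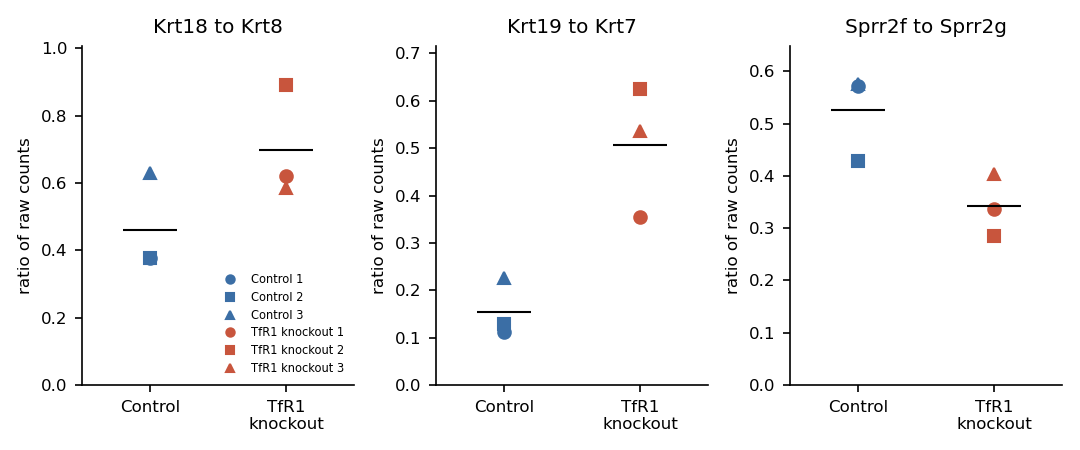
Ratio of raw counts within each library for 3 gene pairs (Krt18 to Krt8, Krt19 to Krt7 and Sprr2f to Sprr2g), with marks for libraries and black bars for group means. The Krt18 to Krt8 ratio of Control replicate 3 (0.629) lies among the knockout values, while the Krt19 to Krt7 ratios do not overlap between groups. The Sprr2f to Sprr2g ratios are lower in the knockout libraries, where the Control ratios rest on few reads.

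Levels were also compared between genes per length, as reads per kilobase of the longest coding transcript and library depth (RPKM). That transcript has 4094 bases for Krt7, 1805 for Krt8 and 1400 for Krt18, so the place of Krt7 depends on the length taken. Krt8 and Krt18 were the highest 2 members in both groups, at 124 ± 12.2 and 75.1 ± 30.4 RPKM in Control and 184 ± 57.7 and 162 ± 39.2 RPKM in knockout kidneys. Krt8 and Krt18 in knockout kidneys did not differ beyond their spread. In Control kidneys Krt18 did not stand apart from Krt7, which was higher in Control replicates 1 and 2 (62.3 and 65.6 RPKM against 54.2 and 61.1) and lower in Control replicate 3 (56.6 against 110.0). In Control kidneys the next genes in order were Krt7 (61.5 ± 4.5 RPKM), Sprr1a (31.7 ± 8.2) and Krt19 (24.3 ± 7.9), and the last 2 overlapped within their SD. In knockout kidneys Sprr2g came in place 3 at 154 ± 68.4 RPKM, up from place 13 of the 20 in Control (1.35 ± 1.48), and was followed by Krt19 (88.7 ± 5.7), Krt7 (72.2 ± 26.6), Sprr2f (58.0 ± 29.0) and Sprr1a (55.8 ± 29.3). The spread of Sprr2g reached that of Krt8 and Krt18, and Krt7, Sprr2f and Sprr1a overlapped with each other. Krt19 did not stand apart from Krt7, which was higher in knockout replicate 1 (102.8 RPKM against 94.6). Krt7 was lower in knockout replicates 2 and 3 (54.2 and 59.7 RPKM against 88.1 and 83.2). Krt20 moved from place 14 (1.02 ± 0.39 RPKM) to place 8 (17.3 ± 8.5 RPKM).

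Krt15, a type I keratin of basal cells in stratified epithelia, lies beside Krt19 on chromosome 11 (99993072 to 99997263). It had 61.8, 52.7 and 64.6 normalized counts in Control libraries and 522, 343 and 287 in knockout libraries. The Control libraries were close together and every knockout library was several times higher. Krt15 rose with a log2 fold change of 2.69 (SE 0.31, DESeq2 adjusted p 8.76e-16, edgeR adjusted p 0.0050). The other basal keratins did not follow. Krt5 had 77.5, 165 and 86.1 normalized counts in Control and 151, 162 and 75.7 in knockout libraries (log2 fold change 0.24, SE 0.43, DESeq2 adjusted p 0.766), and Krt14 had 54.4, 99.98 and 89.3 against 71.6, 120.3 and 59.6 (0.04, SE 0.41, DESeq2 adjusted p 0.965). Both overlapped fully between groups, and the sign of the Krt14 difference turned under total-count and upper-quartile scaling. Krt17, a keratin of stressed and regenerating epidermis, had 6, 20 and 2 raw reads in Control and 20, 2 and 24 in knockout libraries, with no call (log2 fold change 0.84, SE 1.05, DESeq2 adjusted p 0.649). The value was 0.39 without Control replicate 3 and 2.07 without Control replicate 2.

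Among the keratins of less common use in kidney, Krt23 (type I, chromosome 11, 99339288 to 99354451) rose from 92.0 ± 5.0 to 235 ± 79.5 normalized counts. Its libraries had 94.0, 86.3 and 95.8 in Control and 211, 324 and 170.3 in knockout kidneys. The Control values lay within 10 of each other and none of the groups' values overlapped (log2 fold change 1.35, SE 0.31, DESeq2 adjusted p 0.000358, edgeR adjusted p 0.0387). Krt4, a type II keratin of wet stratified linings such as the oesophagus, had 24, 24 and 36 raw reads in Control and 76, 50 and 61 in knockout libraries. Its log2 fold change of 1.31 (SE 0.41) was called in DESeq2 (adjusted p 0.0154) and not in edgeR (adjusted p 0.0824), and the call held in 1 of the 6 fits that left out a library. Krt80, a type II keratin, had 178, 179 and 59.2 normalized counts in Control and 331, 247 and 334 in knockout libraries. Control replicate 3 set the size of this difference, since the log2 fold change was 1.13 (SE 0.42, DESeq2 adjusted p 0.0468) with it and 0.77 without it, and the call was lost in each of the 6 fits and in edgeR (adjusted p 0.141).

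Krt10, the type I keratin of the upper epidermal layers, was the only reported member whose knockout libraries all lay below the Control libraries. It had 137, 139.98 and 143 normalized counts in Control and 89.5, 87.0 and 98.4 in knockout libraries, so the spread within each group was narrow. The log2 fold change of -0.61 (SE 0.23) stayed under 2-fold and its DESeq2 adjusted p was 0.0547, with edgeR at 0.126. With TMM, total-count or upper-quartile scaling the DESeq2 adjusted p was 0.0397, 0.0306 and 0.0338, whereas it was 0.128 to 0.271 when a library was left out, 0.300 with a replicate block and 0.122 in limma-voom. The keratin-like gene Krt222 had 19, 27 and 15 raw reads in Control and 12, 21 and 23 in knockout libraries, a log2 difference of 0.09 with no call and no stable sign.

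**Figure D3:**
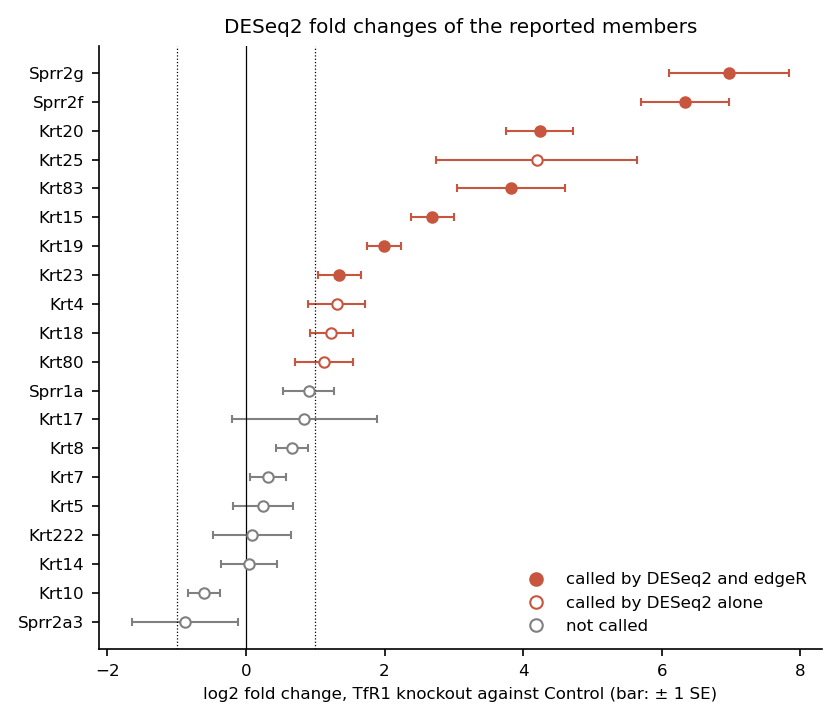
Log2 fold change of TfR1 knockout against Control (DESeq2, bars ± 1 SE) for the 20 reported genes, filled where DESeq2 and edgeR both called the gene, open red where DESeq2 alone did and grey where neither did. Sprr2g (6.97) and Sprr2f (6.33) lie at the top, 18 of the 20 values are above 0, and Krt10 and Sprr2a3 are the 2 below it.

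The largest changes among the members were in 2 genes of the Sprr2 group, whose products are small proteins built of proline-rich repeats. Sprr2g (chromosome 3, 92177837 to 92179151) had 7, 7 and 33 raw reads in Control replicates 1 to 3 and 2729, 924 and 2149 in knockout replicates 1 to 3. Sprr2f, nearby on the same strand (92169109 to 92170364), had 4, 3 and 19 reads in Control and 920, 264 and 867 in knockout libraries. For both genes Control replicate 3 held most of the Control reads, knockout replicate 1 was the highest and knockout replicate 2 the lowest knockout library, and the groups were far apart.

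In normalized counts the mean of Sprr2g was 15.9 ± 17.01 in Control and 1976 ± 767 in knockout kidneys. Sprr2g rose with a log2 fold change of 6.97 (SE 0.86, DESeq2 adjusted p 1.22e-13, edgeR adjusted p 0.0039). Sprr2f rose between means of 8.83 ± 10.1 and 691 ± 309.5 (6.33, SE 0.64, DESeq2 adjusted p 1.78e-20, edgeR adjusted p 0.0061). The size rests on few Control reads, 47 for Sprr2g and 26 for Sprr2f over 3 libraries. Without Control replicate 3 the log2 fold changes were 8.35 and 7.83, and over all fits that left out a library they ran from 6.57 to 8.35 for Sprr2g and from 5.90 to 7.83 for Sprr2f, called in each. Sprr2f had 0.571, 0.429 and 0.576 reads for each read of Sprr2g in Control libraries and 0.337, 0.286 and 0.403 in knockout libraries, which did not overlap (exact two-sided permutation p = 0.1, adjusted 0.125). The Control ratios rest on 4, 3 and 19 reads of Sprr2f and 7, 7 and 33 of Sprr2g, so they are uncertain.

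Of the other Sprr2 copies, Sprr2a3 had the most reads, and more in Control libraries (80) than Sprr2g or Sprr2f. It had 16, 41 and 23 raw reads in Control and 27, 4 and 9 in knockout libraries and its groups overlapped. The log2 difference of -0.88 (SE 0.77, DESeq2 adjusted p 0.487) was -1.86 without knockout replicate 1 and -0.49 without Control replicate 2, with no call. Sprr2h had 3 reads in all, Sprr2d and Sprr2e 1 each, and the rest of the group none. A count of 0 allows up to 3 reads in a library, which covers counting error only. Since near-identical copies can share reads, the 12 Sprr2 genes were also summed, which gave 27, 51 and 75 reads in Control and 3677, 1194 and 3027 in knockout libraries. The normalized sum rose 53.9-fold between group means (49.8 ± 29.4 against 2683 ± 1076). How the counted reads were divided among the copies does not enter this value. Reads that fit several copies are left out by unique counting and are not in the sum. In the coding transcripts of the annotation, no window of 100 bases of Sprr2f, Sprr2g or Sprr1a was found in another gene, while Sprr2a1 and Sprr2a2 had 5.81% of their windows to themselves and Sprr2a3 80.4%, so the Sprr2a counts are uncertain.

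Sprr1a, the Sprr gene with the most reads in Control kidneys, lies at the far end of the cluster (92287877 to 92289816, minus strand). It had 336, 551 and 533 normalized counts in Control and 1375, 603 and 679 in knockout libraries. All knockout libraries lay above all Control libraries, 2 of them only slightly. The log2 fold change of 0.90 (SE 0.37) missed the thresholds (DESeq2 adjusted p 0.077, edgeR adjusted p 0.164), and leaving out knockout replicate 2 gave 1.12 with a call while leaving out knockout replicate 1 gave 0.44. In Control libraries there were 58.3, 86.6 and 15 reads of Sprr1a for each read of Sprr2g, and in knockout libraries 0.507, 0.510 and 0.334. Sprr1a thus had more reads than Sprr2g in every Control library and fewer in every knockout library. This ratio was chosen after the data had been seen. Its exact two-sided permutation p of 0.1 (adjusted 0.125) is the smallest the test allows and adds nothing to the description. Sprr1b, Sprr3 and Sprr4 had at most 1 read in all.

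The 250 bases before the start of Sprr2f are shown with those of 2 copies in the same cluster that had 1 read (Sprr2e) and 0 reads (Sprr2i), since these are the closest to it in sequence and differ from it in the knockout kidneys, and with those of Krt20, the called keratin with the largest fold change. Sprr2e and Sprr2i were chosen after their counts had been seen. The sequences are from RefSeq (GRCm38.p6, a later build than that of the counts) and read 5′ to 3′. Capitals mark TGANTCA (the AP-1 site), ATTTGCAT (the octamer) and TATAAA.
Sprr2f, chr3:92364937-92365186, plus strand: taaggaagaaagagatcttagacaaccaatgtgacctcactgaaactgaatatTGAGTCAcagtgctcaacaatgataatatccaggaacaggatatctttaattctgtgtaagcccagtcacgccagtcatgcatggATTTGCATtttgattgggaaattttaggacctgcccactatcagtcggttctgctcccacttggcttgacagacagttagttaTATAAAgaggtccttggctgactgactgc
Sprr2e, chr3:92351893-92352142, plus strand: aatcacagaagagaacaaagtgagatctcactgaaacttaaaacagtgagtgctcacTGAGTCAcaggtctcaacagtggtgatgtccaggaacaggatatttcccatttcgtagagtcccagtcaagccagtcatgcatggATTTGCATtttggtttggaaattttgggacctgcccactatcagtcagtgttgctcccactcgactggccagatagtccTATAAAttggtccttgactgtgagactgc
Sprr2i, chr3:92407741-92407990, plus strand: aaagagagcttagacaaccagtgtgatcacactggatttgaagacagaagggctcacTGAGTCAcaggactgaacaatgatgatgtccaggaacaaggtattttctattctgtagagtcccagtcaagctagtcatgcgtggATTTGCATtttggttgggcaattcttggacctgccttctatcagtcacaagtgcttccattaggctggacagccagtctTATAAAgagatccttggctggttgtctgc
Krt20, chr11:99438154-99438403, minus strand: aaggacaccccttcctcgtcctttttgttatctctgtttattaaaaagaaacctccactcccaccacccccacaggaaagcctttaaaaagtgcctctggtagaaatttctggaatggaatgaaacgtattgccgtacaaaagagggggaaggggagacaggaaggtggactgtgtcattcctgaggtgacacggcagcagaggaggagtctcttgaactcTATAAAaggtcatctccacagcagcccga

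Promoters were found for 49 of the 68 members and 12 of the 20 reported genes, which do not include Sprr2g, and each motif was searched in the 250 bases before the start, on both strands except TATAAA. The AP-1 letters TGANTCA were present in 2 of these 12, Sprr2f and Sprr1a, and in 6.75% of all 32851 promoters. The octamer, which was picked after these sequences had been seen, was present in Sprr2f and in 1.6% of all promoters, and TATAAA in 5 of the 12 (Krt10, Krt20, Krt25, Sprr1a and Sprr2f) and in 7.59% of all. The STAT motif TTCNNNGAA was found in Krt25 and Sprr2a3 (7.02% of all promoters), and CACCC, which KLF factors bind, in 9 of the 12 and in 52% of all. The hypoxia response letters ACGTG were found in Krt23 (16.6% of all promoters), and GCGTG in Krt10, Krt14, Krt18, Krt23 and Sprr2f (28.2%). Of the 10 Sprr2 promoters in the table, 7 (Sprr2b, Sprr2d, Sprr2e, Sprr2f, Sprr2h, Sprr2i and Sprr2k) held TGANTCA with its first base 182 to 198 bases before the start, ATTTGCAT at 108 to 112 and TATAAA at 29. Of these 7, Sprr2f had 2077 reads in all and the others at most 3. In a global alignment the Sprr2i promoter was 74% and the Sprr2e promoter 73.9% identical to that of Sprr2f, against 50.2% for Sprr2a1. A match of letters is a description and not a site shown to be used.

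Hair keratins are read apart, because 1 library carried most of their reads. Krt25, a type I keratin of the inner root sheath, had 3, 0 and 1 raw reads in Control libraries and 1, 10 and 55 in knockout libraries. Knockout replicate 1 lay within the Control range and knockout replicate 3 held most of the reads. DESeq2 called it (log2 fold change 4.19, SE 1.45, adjusted p 0.0313), without knockout replicate 3 the value was 2.52 with no call, and it did not pass edgeR's filter on low counts. Krt71 and Krt27, of the same sheath, had 46 and 38 reads, each in knockout replicate 3 alone, and Krt28 had 23 of its 45 reads there.

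Inner root sheath keratins were counted as a set of 6 (Krt25, Krt27, Krt28, Krt71, Krt72 and Krt73). Together they had 9, 10 and 4 reads in Control libraries and 3, 11 and 187 in knockout libraries. Krt26 and Krt74 were outside this set and did not share its pattern. Krt26 had 5, 0 and 1 reads in Control and 1, 0 and 2 in knockout libraries, and Krt74 had none. The 14 hair shaft keratins other than Krt83 had 4, 17 and 1 reads in Control and 5, 16 and 98 in knockout libraries. Of the 31 members with 1 to 59 reads, 17 had their highest count in knockout replicate 3 and 8 had reads in no other library. Not all of these are hair keratins, since the 8 include Sprr2d and Sprr2e with 1 read each. The same shares over all genes with few reads were not computed. The keratin-associated protein genes, which code for the matrix of the hair shaft, had 5, 7 and 2 reads in Control and 2, 8 and 360 in knockout libraries, and 42 of the 43 such genes with a read had their highest count in knockout replicate 3. The part of this library's hair follicle reads, and of its adrenal marker reads, in the Krt25 call was not tested apart from leaving the library out.

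Krt83, a type II keratin of the hair shaft, had another pattern. Krt85, a gene named after its counts were seen, also had its highest count in knockout replicate 2. Krt85 had 0, 1 and 0 reads in Control and 0, 12 and 5 in knockout libraries, so its groups overlapped, unlike those of Krt83. Krt83 had 8, 2 and 7 raw reads in Control libraries and 34, 119 and 42 in knockout libraries, so its highest count was in knockout replicate 2 and not in the library with most reads of the other hair genes. The groups did not overlap, and Krt83 rose with a log2 fold change of 3.83 (SE 0.78, DESeq2 adjusted p 3.58e-05, edgeR adjusted p 0.0375) that ranged from 2.80 (without knockout replicate 2) to 4.18 when a library was left out, called each time. In limma-voom it was not called. Of its 100-base windows 93.2% were found in no other gene, the rest being shared with Krt81, Krt86 and 5430421N21Rik. Krt81 and Krt86 had 0 and 2 reads in knockout replicate 2.

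**Figure D4:**
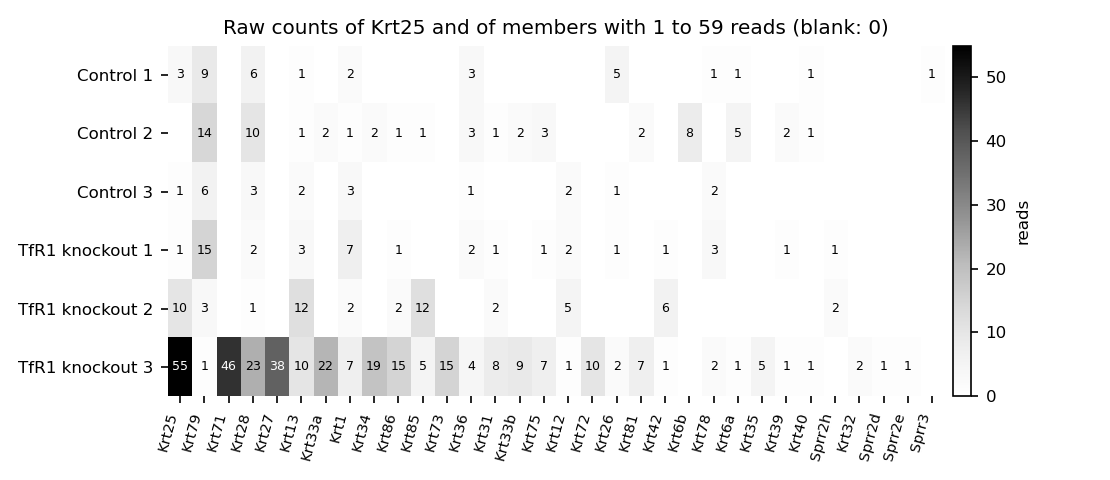
Raw reads in each library for Krt25 and the 31 members with 1 to 59 reads in all, with darker cells for more reads and blank cells for 0. The row of TfR1 knockout replicate 3 holds most of the reads, with 55 of Krt25, 46 of Krt71 and 38 of Krt27, while Krt79 is spread over all 6 libraries.

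The remaining members under 60 reads with the most reads were Krt79 (9, 14 and 6 reads in Control and 15, 3 and 1 in knockout libraries) and Krt13, a type I keratin of wet stratified linings (1, 1 and 2 against 3, 12 and 10). Neither passed (DESeq2 adjusted p 0.837 and 0.0955).

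By position, 66 of the 68 members were placed, in 3 clusters. The keratins of chromosome 11 (99094075 to 100131185) were all of type I, with 27 members of which 9 were reported, 5 called by DESeq2 and 4 by edgeR (median log2 fold change 1.35 over the 9). The chromosome 15 cluster (101177875 to 101862457) held type II keratins and Krt18, with 23 members of which 7 were reported, 4 called by DESeq2 and 1 by edgeR (median 1.13). The Sprr cluster of chromosome 3 (92019757 to 92304415) had 16 members, 4 reported and 2 called by both tools (median 3.62). Within 1000000 bases on either side, 5 other genes near the Sprr cluster had an adjusted p and 1 was called, Tchhl1, named after its values were seen, with 9.07, 15.5 and 6.46 normalized counts in Control and 42.8, 32.0 and 36.9 in knockout libraries (log2 fold change 1.84, DESeq2 adjusted p 0.0067). Around the chromosome 11 cluster 2 of 67 other genes (2.99%) were called higher and 3 lower, and around the chromosome 15 cluster 1 of 50 (2%) higher and 4 lower. Over all genes tested, DESeq2 called 4.41% higher and 4.46% lower, and edgeR 2.48% and 2.31%.

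Genes that work with keratins were counted from lists that were chosen with earlier results of these data known. Of 23 desmosome and plakin genes, which anchor keratin filaments, 17 had an adjusted p, 4 rose in DESeq2 and 2 of them in edgeR, and 0 were called lower (median log2 fold change 0.48), where 4.41% of all genes tested rose in DESeq2 and 2.48% in edgeR. Itgb4, the hemidesmosome integrin, had 476, 498 and 338 normalized counts in Control and 1432, 1029.9 and 1153 in knockout libraries (log2 fold change 1.46, DESeq2 adjusted p 4.75e-08, edgeR adjusted p 0.0118). Ppl, the envelope plakin periplakin, went from 532 to 1263 (1.25, DESeq2 adjusted p 9.76e-05, edgeR adjusted p 0.0273). Neither overlapped between groups. Perp and Eppk1 rose in DESeq2 (1.08 and 1.18) and missed edgeR's threshold (adjusted p 0.0713 and 0.0897).

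Of 36 cornified envelope genes other than Sprr in the table, 14 had no read in any library, all of them Lce genes of the late envelope, 11 had an adjusted p and 1 was called (beside 4.41% of all genes in DESeq2 and 2.48% in edgeR), Cdsn (corneodesmosin), which rose with means of 3.14 and 22.2 normalized counts (2.84 on the log2 scale, DESeq2 adjusted p 0.0041, edgeR adjusted p 0.0291). Of 18 regulators of squamous differentiation, 16 had an adjusted p, 5 rose in DESeq2 and 2 in edgeR, and 0 were called lower (median 0.54). Klf4, a transcription factor of barrier epithelia, had 425, 415 and 540.4 normalized counts in Control and 1527, 1235 and 1059 in knockout libraries (1.47, DESeq2 adjusted p 3.53e-09, edgeR adjusted p 0.0092). Jun, a part of AP-1, rose from 738 to 3164 (2.10, DESeq2 adjusted p 4.04e-05, edgeR adjusted p 0.0413), with its highest value, 5431, in knockout replicate 1. Junb and Elf3 rose in DESeq2 (2.64 and 1.37) and not in edgeR (adjusted p 0.0585 and 0.0525).

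Of 16 other intermediate filament genes, 14 had an adjusted p, 2 were called higher and 1 lower in DESeq2 (median -0.24). Over all genes tested DESeq2 called 4.41% higher and 4.46% lower. Lmnb1, a nuclear lamin, fell, with means of 1307 and 571 normalized counts (log2 fold change -1.19, DESeq2 adjusted p 0.00085, edgeR adjusted p 0.0438). The neurofilament genes Nefl and Nefm rose in DESeq2 (2.00 and 2.13) and missed edgeR's threshold (adjusted p 0.0926 and 0.0578).

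Markers of the epithelia that carry these keratins moved to different extents. None of 12 urothelium markers was called in DESeq2 or edgeR (1 passed an adjusted p under 0.05 in DESeq2 at under 2-fold), and their summed normalized counts were 2033, 2417 and 2628 in Control and 2855, 3321 and 2554 in knockout libraries, which overlapped. Of 14 collecting duct markers 3 rose and 2 fell in DESeq2, and 1 rose and 2 fell in edgeR. Of all genes tested, DESeq2 called 4.41% higher and 4.46% lower, and edgeR 2.48% and 2.31%. The collecting duct markers summed to 32710.3, 32847 and 18473 in Control and 45674, 74459 and 46898 in knockout libraries. Aqp2, the vasopressin-regulated water channel, had 5747, 5581 and 2409 against 17805, 50719 and 23564 normalized counts (log2 fold change 2.74, DESeq2 adjusted p 4.92e-08, edgeR adjusted p 0.0255). Aqp3 and Atp6v0d2 rose in DESeq2 (1.02 and 1.03) and missed edgeR's threshold (adjusted p 0.0966 and 0.0586). Slc26a4 fell, with means of 1450 and 641 normalized counts (log2 fold change -1.18, DESeq2 adjusted p 2.46e-05, edgeR adjusted p 0.0189). Without Aqp2 the other 13 markers summed to 26963, 27266 and 16064 in Control and 27868, 23739 and 23334 in knockout libraries, which overlapped. That sum adds markers called higher and markers called lower, so its overlap does not mean that none of them changed.

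Of 8 injured tubule markers 5 rose in DESeq2 and 4 in edgeR, and 0 were called lower (median 1.76), beside 4.41% and 2.48% of all genes tested called higher. Their sums were 36851, 39732 and 32277 in Control and 154253, 127374 and 92968 in knockout libraries, with no overlap, and Lcn2, a secreted iron-binding protein of injured tubules, had 284, 284 and 465 against 2102, 3460 and 1817 normalized counts (log2 fold change 2.84, DESeq2 adjusted p 5.05e-16, edgeR adjusted p 0.0050). Spp1 made up most of this sum, and the other 7 markers summed to 5516, 5674 and 4162 in Control and 24516, 14040.2 and 12064 in knockout libraries, again with no overlap. Of 5 smooth muscle markers 1 fell in DESeq2 and 0 in edgeR (4.46% and 2.31% of all genes tested were called lower). Of 5 leukocyte markers 1, Cd68, rose in both. The part that more or fewer cells of any of these types had in the keratin and Sprr values was not tested.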

How the data were processed

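Whole kidneys, 3 Control and 3 TfR1 knockout, were measured. The authors deposited raw counts of reads per gene, with no normalization. Per the submitters' processing notes and the study, base calls came from CASAVA 1.8.2, reads were trimmed (Trimmomatic), aligned to mm9 with TopHat2 2.0.11, and uniquely mapped reads were counted with HTSeq. The strand setting and the annotation of the counting are not given in the sources used here. Reads that fit several copies of a gene are left out by unique counting. Total counts of 16591156 to 22898008 per library make counting error small for abundant genes and large for members under 60 reads.

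DESeq2 1.42.0 (R 4.3.3, Wald test, median-ratio size factors, Benjamini-Hochberg adjustment, independent filtering at 0.05) was fitted to all genes and calls needed both an adjusted p under 0.05 and 2-fold, unshrunken. It gave 16509 genes an adjusted p (lowest mean count 3.51), and 29 none for an outlying count. edgeR 4.0.16 (quasi-likelihood, TMM, filterByExpr, 15308 genes) is given beside it. Alternatives were voom from limma 3.58.1, TMM, total-count and upper-quartile size factors, filters and read minimums, a replicate block and leaving out each library. The code was tested on simulated data. edgeR was set beside DESeq2 because DESeq2 had made more false calls in an earlier test of the code. Members, lists and tests were chosen with earlier results of these data known. Every member with 60 or more reads could be named, the 5 with most reads below that, and up to 4 called genes of each list by mean count. Some other genes were named outside this rule, among them Krt26, Krt81, Krt85, Krt86, Tchhl1 and Sprr genes with few or no reads. Same-numbered libraries did not deviate together (correlations -0.038, 0.055 and 0.090), so the numbers were not taken as pairs. Gene positions are from GENCODE on mm9.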

Additional observations from a re-analysis of the deposited data

How the results depend on the processing

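Of 11 reported genes called higher, edgeR called 7 and limma-voom 6, and both counts left out Krt18, Krt4, Krt80 and Krt25 (limma-voom also Krt83). The cause was not tested. Other size factors, filters and read minimums gave 10 or 11, no fold threshold 12, and leaving out each library 8 to 9. With a replicate block 9 were called, without Krt4 and Krt25. None of these alternatives called a member lower. Krt14 turned to -0.093 with total counts and -0.019 with upper-quartile size factors, and ranged from -0.30 to 0.24 when a library was left out. Krt222 turned to -0.020 with total counts, ranged from -0.15 to 0.37 when a library was left out, and was -0.082 without both libraries with adrenal marker reads, an alternative chosen after seeing the data. The Sprr2 sum gave 5.75 in place of 6.97 for Sprr2g. Few Control reads limit the size of the Sprr2g, Sprr2f, Krt83 and Krt25 differences, 3 kidneys a group limit every call, and outlying libraries in groups of 3 were not tested for.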
